A study of Mus musculus with 95 samples.

Results

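The 10 genes described here encode 3 tissue inhibitors of metalloproteinases (Timp1, Timp2 and Timp3), 6 matrix metalloproteinases (Mmp2, Mmp3, Mmp7, Mmp9, Mmp12 and Mmp14) and the aggrecanase Adamts1. They were taken as every probe set whose only gene symbol in the array annotation was a listed member, which gave 19 of 45037 probe sets and 10 of 17097 genes. Timp2 had 5 probe sets, Timp3 had 4, Mmp9 and Mmp14 had a pair each, and the other genes had 1. Where a gene had more than 1, the brightest by its mean over all kidneys stood for it.

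Kidney RNA of SNF1 mice, the lupus-prone F1 cross of SWR and NZB, was hybridized to 95 arrays. Pristane-SNF1 mice were females that received the hydrocarbon oil pristane intraperitoneally at 9 weeks of age, and their kidneys were taken 2 weeks (9 mice), 4 weeks (10 mice), 8 weeks (8 mice), 12 weeks (8 mice) and 14 weeks (9 mice) later. The age-matched controls were SNF1 mice without treatment, with 7 mice at week 0 and then 10, 9, 10, 10 and 5 mice at the weeks just named. The labels give these controls no injection, so the oil and the injection itself cannot be told apart.

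Matrix metalloproteinases are zinc proteases, most of them secreted as inactive precursors, that cleave collagens, proteoglycans and other proteins of the extracellular matrix. Timp proteins bind their active site and block it, so the balance of the 2 families sets how fast matrix is degraded. In injured and fibrotic kidneys both the proteases and their inhibitors are made by tubular cells, fibroblasts and infiltrating macrophages, and TIMP1 is widely used as a marker of fibrosis.

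Expression is given as the log2 values deposited by the authors. The lowest value of the table was 2.21, a floor shared by 18.6% of all values, and the array medians were between 4.22 and 4.57. Low values of several members repeated across kidneys. Mmp12 lay within 0.01 of 2.21 in 70 of 95 kidneys, Mmp2 within 0.01 of 2.64 in 60, Mmp3 of 2.55 in 58, Mmp7 of 3.53 in 78 and Mmp9 of 2.97 in 65. A fold change measured from such a repeated low value may be smaller than the true one. The representing probe set of Mmp14, with values from 4.82 to 5.81, lay within 0.01 of 5.31 in 55 kidneys. The second probe set of Mmp14 lay within 0.01 of 2.21 in 91. Pristane and untreated mice of the same week were compared with limma over all 45037 probe sets, and a probe set was called at a Benjamini-Hochberg adjusted p under 0.05. In bulk kidney RNA, fewer cells of a type and less RNA per cell cannot be told apart.

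The kidney with the highest Timp1 of the untreated mice stood apart. In untreated mouse 10 of week 12 Timp1 was 8.02, whereas the other 9 untreated mice of that week lay between 3.05 and 3.51. The same kidney had the highest mean of the macrophage markers (7.73, median of its group 5.05) and of the injured tubule markers (7.79, median 6.06). Mmp12 (4.19) and Adamts1 (8.41) were also highest of the group in this kidney, while Mmp2 was 2.64. A swapped label and disease without treatment cannot be told apart for this mouse, so the control values of week 12 hold only as labelled. The week 12 results of Timp1, Timp2, Mmp2, Adamts1 and Mmp12, and the differences between weeks 14 and 12, are given with and without it. The mean of 12 adrenal markers varied within nearly every group, and at week 2 its median was 7.59 in pristane-SNF1 mice and 3.84 in untreated mice. With it as a covariate, 0 member probe sets were called at weeks 2, 4, 8 and 12, as without it.

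At week 14, 4 of the 10 genes were higher and 1 was lower in pristane-SNF1 mice than in untreated mice. Timp1 was 23.6-fold higher, Mmp2 4.26-fold, Adamts1 3.32-fold and Timp2 1.85-fold, and Timp3 fell by 0.46 on the log2 scale. Of all 17097 genes, 6.97% were called higher and 4.8% lower in this comparison. Over probe sets, 5 of the 19 were called higher and 2 lower, against 4.57% and 3.73% of all 45037. At an unadjusted p under 0.05, 9 were higher and 4 lower, against 10.2% and 13.4%. The median log2 fold change of the 19 was 0.25, and that of all probe sets was 0.00. How many of all probe sets had groups without overlap, or most treated mice beyond every control, was not counted at any week.

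**Figure D1:**
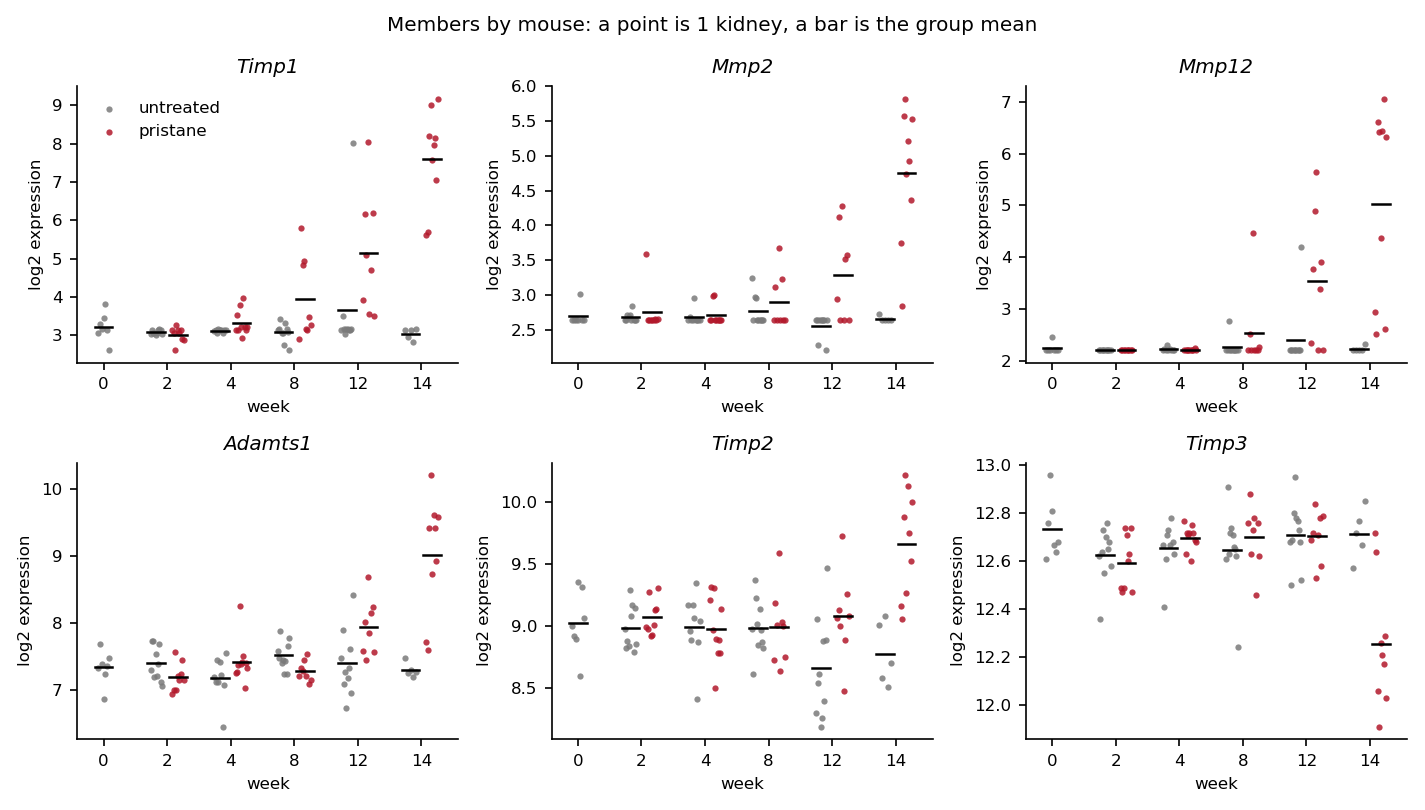
Log2 expression (vertical axis) of 6 members in each kidney, by week (horizontal axis), in untreated mice (grey) and pristane-SNF1 mice (red), with the group mean as a black bar. At week 14 all 9 pristane-SNF1 kidneys lay above every untreated kidney of that week for Timp1, Mmp2, Mmp12 and Adamts1, and 7 of 9 lay below every untreated kidney for Timp3. The share of all genes that separated in this way was not counted.

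Timp1, a secreted inhibitor of most matrix metalloproteinases, was low in untreated kidneys. At week 14 the 5 untreated mice had log2 values of 3.13, 2.97, 3.13, 2.84 and 3.16, and the 9 pristane-SNF1 mice ranged from 5.61 to 9.18 with a median of 7.97. The groups did not overlap, and pristane mice 1 and 2 were the lowest of the treated group at 5.61 and 5.70. The log2 fold change was 4.56 (SE 0.575, limma adjusted p = 0.00346). The call did not rest on any mouse: when each of the 14 was left out in turn, the log2 fold change was between 4.36 and 4.81 and the highest adjusted p was 0.0162.

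Earlier, Timp1 was not called. In pristane-SNF1 mice it lay between 2.63 and 3.27 at week 2 and between 2.93 and 3.97 at week 4. At week 8 it reached 5.80, 4.94 and 4.84 in mice 2, 4 and 3, while the median of the group was 3.38 and the untreated mice lay between 2.62 and 3.42. At week 12 the pristane-SNF1 mice ranged from 3.51 to 8.04 with a median of 4.90, and the untreated median was 3.16. The log2 fold changes were -0.06 at week 2, 0.21 at week 4, 0.86 at week 8 (SE 0.345, adjusted p = 1) and 1.48 at week 12 (SE 0.725, adjusted p = 0.819). Without untreated mouse 10 the value at week 12 was 1.97, with a limma adjusted p of 0.0844. The group means of pristane-SNF1 mice were thus ordered by week from 3.02 (SD 0.188, n = 9) at week 2 to 7.61 (SD 1.28, n = 9) at week 14. At week 4, 6 of 10 pristane-SNF1 mice lay above every untreated mouse, whose values were between 3.06 and 3.16, but the difference did not pass the test (SE 0.109, adjusted p = 0.929).

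Timp2 inhibits metalloproteinases and also takes part, together with Mmp14, in the activation of the Mmp2 precursor. At week 14 its log2 values in untreated mice were 9.01, 8.58, 9.08, 8.51 and 8.70, and those in pristane-SNF1 mice ranged from 9.06 to 10.22 with a median of 9.75. Pristane mouse 2 (9.06) fell within the untreated range and the other 8 lay above it. The log2 fold change was 0.89 (SE 0.208, limma adjusted p = 0.0275). The 5 probe sets of Timp2 did not give the same size of change. A second one rose 2.39-fold (log2 fold change 1.26, SE 0.247, adjusted p = 0.0153), from 5.37 to 5.82 in untreated mice to 5.76 to 7.64 in pristane-SNF1 mice. A further pair were higher by 0.37 and 0.25 on the log2 scale with adjusted p of 0.147 and 0.347, and the fifth lay at the floor in nearly all kidneys. At week 12 the log2 fold change of the first was 0.42 (SE 0.18, adjusted p = 0.786), and 0.51 with an adjusted p of 0.17 without untreated mouse 10, whose value (9.47) was the highest of its group.

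Timp3, the inhibitor that is bound to the matrix and that also blocks several Adam and Adamts proteases, was well above the floor in every kidney, with a lowest value of 11.91. At week 14 it was 12.57, 12.72, 12.77, 12.67 and 12.85 in untreated mice and ranged from 11.91 to 12.72 with a median of 12.21 in pristane-SNF1 mice. Mice 1 (12.72) and 2 (12.64), which had the lowest Timp1 of the treated group, were the ones within the untreated range. Timp3 fell by 0.46 on the log2 scale (SE 0.125, limma adjusted p = 0.0431). The other 3 probe sets were also lower, by -0.84 (adjusted p = 0.0429), -0.45 (0.0709) and -0.35 (0.158), of which the first passed the test. This call was the least stable of the 5 genes: it was lost when any of 12 of the 14 mice was left out, with adjusted p up to 0.102, while the log2 fold change stayed between -0.52 and -0.42.

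In the reference annotation Timp1 lies inside the synapsin gene Syn1 and Timp3 inside Syn3. The probe sets of these hosts did not pass the test at week 14, where Syn1 was 2.21 in both group means and the log2 fold change of Syn3 was -0.05 (SE 0.103, limma adjusted p = 0.91).

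**Figure D2:**
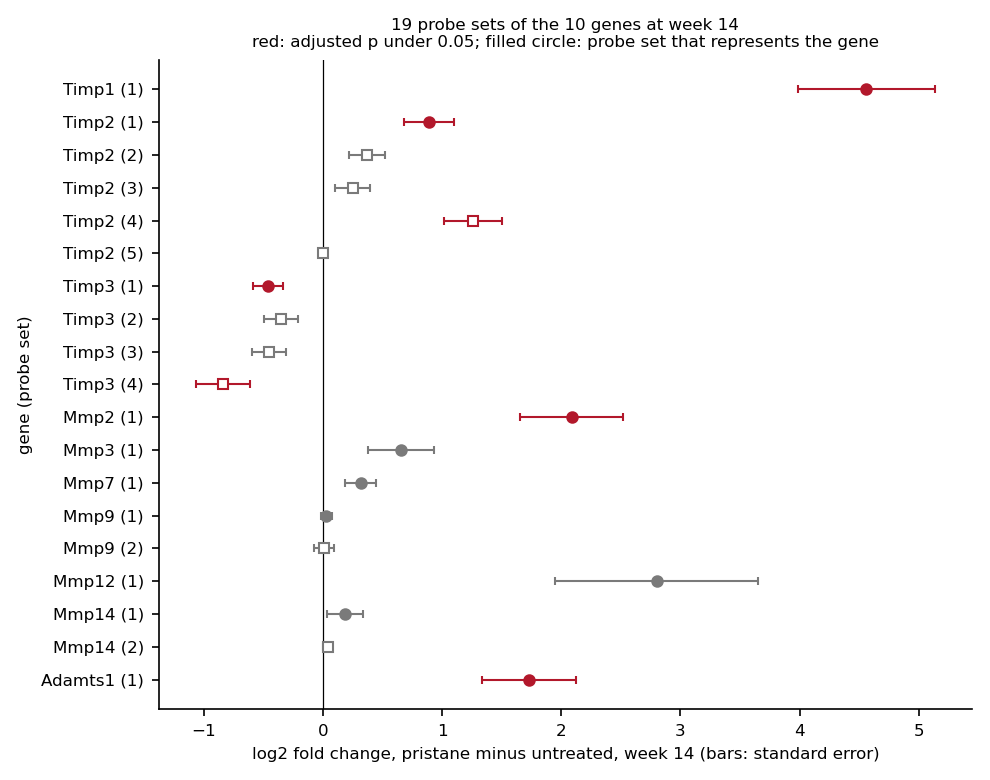
Log2 fold change of pristane-SNF1 against untreated mice at week 14 (horizontal axis, with standard error) for the 19 probe sets, numbered within each gene (vertical axis). Red marks the 7 probe sets with an adjusted p under 0.05: 5 higher, from Timp1, Timp2, Mmp2 and Adamts1, and 2 lower, both from Timp3.

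Mmp2, or gelatinase A, degrades denatured collagen and basement membrane collagen. It lay near its repeated low value in untreated mice of week 14, at 2.73 in mouse 1 and 2.64 in the other 4, and ranged from 2.84 to 5.82 with a median of 4.92 in pristane-SNF1 mice. All 9 were above every control, mouse 2 being the lowest. Mmp2 rose by 2.09 (SE 0.432, limma adjusted p = 0.0183) on the log2 scale. At week 12, 5 of 8 pristane-SNF1 mice were above the highest untreated mouse, and the values reached 4.28. The log2 fold change was 0.73 there (SE 0.216, adjusted p = 0.523), and 0.74 with an adjusted p of 0.164 without untreated mouse 10. At week 8, pristane mice 2, 4 and 6 had 3.12, 3.68 and 3.23, and the other 5 lay at 2.64. Untreated mice 1, 3 and 4 of that week had 3.25, 2.97 and 2.95, so that 1 pristane-SNF1 mouse was above every control (log2 fold change 0.14, SE 0.144, adjusted p = 1).

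Adamts1 is a secreted protease of the proteoglycans versican and aggrecan. At week 14 it was 7.48, 7.25, 7.30, 7.19 and 7.26 in untreated mice and ranged from 7.59 to 10.21 with a median of 9.42 in pristane-SNF1 mice. The groups did not overlap, although mice 1 (7.71) and 2 (7.59) lay close to the controls and the other 7 at 8.73 or more. The log2 fold change was 1.73 (SE 0.397, limma adjusted p = 0.0261). At week 12 it was 0.55 (SE 0.214, adjusted p = 0.74), and 0.66 with an adjusted p of 0.112 without untreated mouse 10. At week 8 Adamts1 was slightly lower in pristane-SNF1 mice, by -0.23 (SE 0.088), which did not pass the test either (adjusted p = 1).

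Mmp12, the macrophage elastase, did not pass the test at week 14 in spite of a 6.94-fold difference. Of the untreated mice, 4 lay at the floor of 2.21 and mouse 5 was at 2.33. The 9 pristane-SNF1 mice had 2.94, 2.52, 6.61, 6.41, 4.37, 6.43, 7.06, 2.62 and 6.32, in the order of their numbers. All were above every control, but mice 1, 2 and 8 were within 1 log2 unit of the floor and 5 were above 6.3. The log2 fold change was 2.80 with a large error (SE 0.851, limma adjusted p = 0.0615). Leaving out pristane mouse 1, 2 or 8 brought the adjusted p to 0.031, 0.0203 and 0.0434. In the other 11 of the 14 omissions Mmp12 was not called, with a limma adjusted p of up to 0.13. It was called in 3 of 8 alternative settings. At week 12 Mmp12 ranged from 2.21 to 5.64 in pristane-SNF1 mice, against 2.21 in 9 untreated mice and 4.19 in mouse 10 (log2 fold change 1.14, SE 0.45, adjusted p = 0.742). Without mouse 10 it was 1.33, with an adjusted p of 0.17.

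The remaining 4 metalloproteinases did not pass the test in any week. Mmp3, or stromelysin 1, ranged from 2.55 to 4.08 in pristane-SNF1 mice of week 14, and 6 of 9 were above the highest control (2.55; log2 fold change 0.66, adjusted p = 0.162). Mmp7, or matrilysin, which in kidney is known as a product of injured tubular epithelium, was at 3.53, the highest control value, in mice 1, 2 and 6 and between 3.67 and 4.29 in the other 6 (log2 fold change 0.32, adjusted p = 0.145). Values above the repeated low one also occurred in untreated mice. Mmp3 was 2.99, 2.80, 3.22 and 3.30 in 4 of the 7 mice of week 0 and reached 3.26 at week 8 and 3.04 at week 12, and Mmp7 reached 3.74 at week 0. Mmp14, the membrane-type protease that activates the Mmp2 precursor, ranged from 4.93 to 5.62 in untreated and from 4.82 to 5.81 in pristane-SNF1 mice (log2 fold change 0.19, SE 0.151, adjusted p = 0.534), with overlapping groups. Its second probe set, at the floor in nearly all kidneys, differed by 0.04 (SE 0.0409, limma adjusted p = 0.607). The repeated values of Mmp14 limit what can be said of it. Mmp9, or gelatinase B, was at 2.97 in all 5 untreated and in 8 of 9 pristane-SNF1 mice of week 14 (log2 fold change 0.03, adjusted p = 0.754). Its highest kidney of the series was pristane mouse 4 of week 8 at 3.72. At week 4, 6 of 10 pristane-SNF1 mice were above every control for Mmp9 (log2 fold change 0.10, unadjusted p = 0.0257), and at week 8, 5 of 8 were (0.21, unadjusted p = 0.0192), with limma adjusted p of 0.914 and 1.

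**Figure D3:**
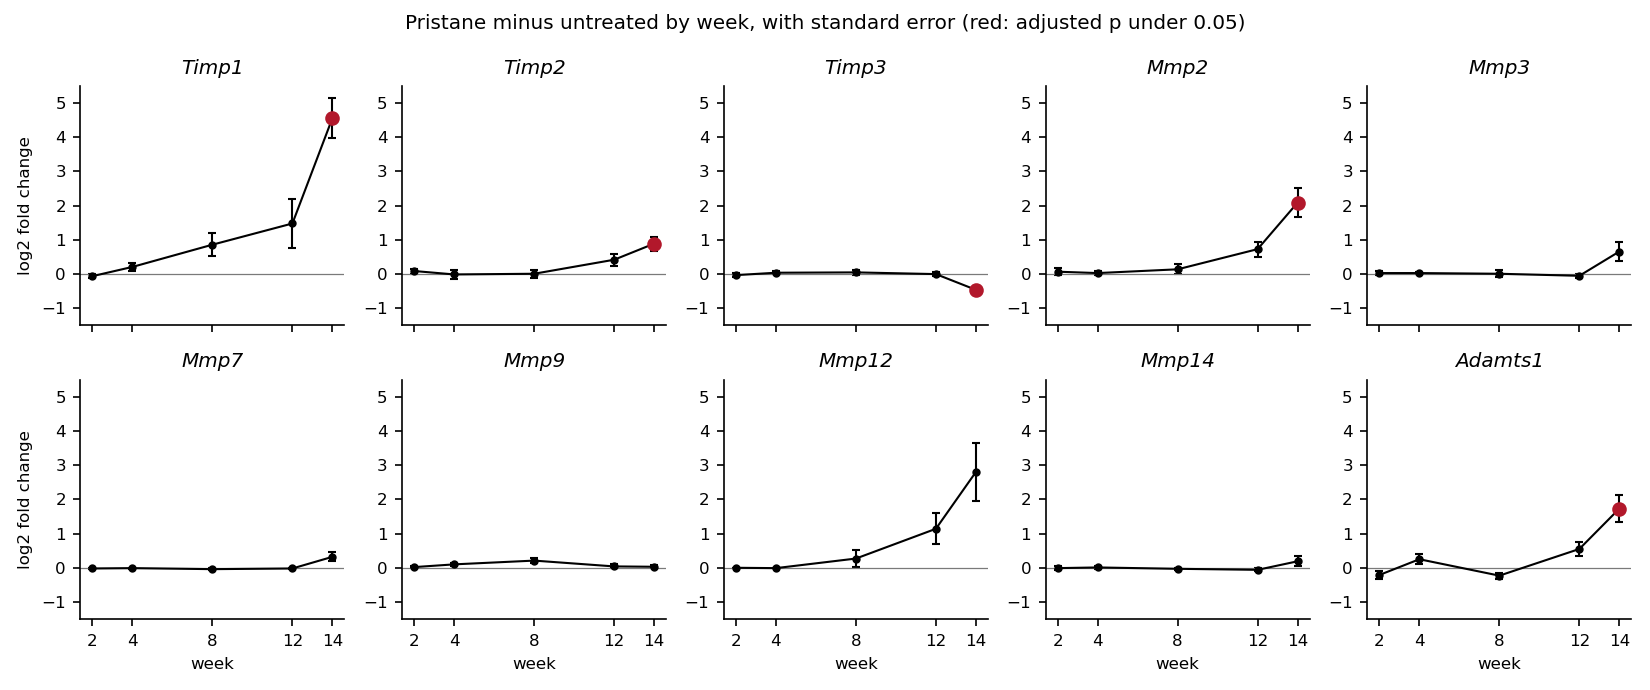
Log2 fold change of pristane-SNF1 against untreated mice (vertical axis, with standard error) at weeks 2 to 14 (horizontal axis) for the 10 genes, each by its representing probe set; red marks an adjusted p under 0.05. The red points are all at week 14, for Timp1, Timp2, Timp3, Mmp2 and Adamts1.

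At weeks 2, 4, 8 and 12 limma called 0 of the 19 probe sets. The background was low at these weeks: of all probe sets 0.231% were called higher and 0.0178% lower at week 2, 0.124% and 0.0133% at week 4, 0.0866% and 0% at week 8, and 0.0244% and 0% at week 12. At an unadjusted p under 0.05, 1 member probe set was higher and 1 lower at week 2, 2 and 0 at week 4, 2 and 1 at week 8, and 6 and 0 at week 12. The shares of all probe sets at that threshold were 3.45% higher and 3.69% lower at week 2, 2.93% and 1.95% at week 4, 2.73% and 0.899% at week 8, and 4.44% and 1.73% at week 12. The 6 at week 12 came from Timp2 (3 probe sets), Mmp2, Mmp12 and Adamts1. Without untreated mouse 10, 1 member probe set, of Timp2, was called higher at week 12, where 1.33% of all probe sets were called higher and 0.0266% lower.

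Whether the effect of pristane differed between weeks 14 and 12 was tested as an interaction. The effect on Timp1 was larger at week 14 by 3.08 on the log2 scale (SE 0.986, limma adjusted p = 0.104), that on Mmp2 by 1.36 (adjusted p = 0.116) and that on Adamts1 by 1.19 (adjusted p = 0.144), and that on Timp3 was more negative by -0.46 (adjusted p = 0.0781). None of the 19 probe sets passed, and 0% of all probe sets were called in either direction. At an unadjusted p under 0.05, 6 member probe sets had a higher and 4 a lower effect at week 14, against 4.52% and 11.3% of all probe sets. When pristane mouse 1 of week 14 was left out, 4 member probe sets passed as higher and 4 as lower, against 0.87% and 4.65% of all. Without pristane mouse 2 there were 5 and 3, against 1.27% and 5.89%. Without untreated mouse 10 of week 12 the differences were 2.59 for Timp1, 1.35 for Mmp2, 1.07 for Adamts1 and -0.44 for Timp3, with adjusted p of 0.101, 0.139, 0.185 and 0.0979.

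A comparison of untreated mice at weeks 14 and 0 asked how the genes moved with age. These were different mice, so age cannot be told apart from any difference in collection or array run. None of the 19 probe sets passed the test in limma, whereas 8.78% of all probe sets were called higher and 4.52% lower. At an unadjusted p under 0.05, 0 were higher and 3 were lower, from Timp2, Mmp3 and Mmp9, while 15.9% of all probe sets were higher and 12.1% lower at that threshold. Those of Timp2 and Mmp9 were not the representing probe sets, for which limma gave an unadjusted p of 0.119 and 0.142. Timp1 was 3.22 (SD 0.362, n = 7) at week 0 and 3.05 (SD 0.138, n = 5) at week 14. The array medians were lower at week 14 by -0.11 in this comparison, and after centring each array on its median 3 member probe sets, 1 of Mmp14 and 2 of Timp3, were called higher, where 34.8% of all probe sets were called higher and 4.35% lower.

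The members were compared with Timp1 within the treated groups, mouse by mouse. The share of all genes correlated as strongly with Timp1 within these groups was not counted. The correlations below are thus not shown to be particular to the members. Among the 9 pristane-SNF1 mice of week 14, Mmp2 (Pearson r = 0.94), Adamts1 (r = 0.95), Timp2 (r = 0.88) and Mmp12 (r = 0.86) were higher in mice with higher Timp1, and Timp3 was lower (r = -0.98). In exact two-sided permutation tests, adjusted over the 9 pairs, their p were 0.000707, 0.00116, 0.00365, 0.00502 and 0.000248, and the unadjusted p 0.000157, 0.000386, 0.00162, 0.00279 and 2.76e-05. Spearman's rho was 0.92, 0.83, 0.83, 0.67 and -0.98, with adjusted permutation p of 0.0059, 0.0186, 0.0186, 0.106 and 0.000446 and unadjusted p of 0.00131, 0.00827, 0.00827, 0.0589 and 4.96e-05. The other 4 pairs had r between -0.16 and 0.58 and did not pass. Mice 1 and 2 lay apart at the low end of Timp1. Without them, over 7 mice, r was 0.89 for Mmp2 and -0.91 for Timp3, each with an exact permutation p of 0.033 after adjustment, and 0.81, 0.73 and 0.74 for Adamts1, Timp2 and Mmp12, which no longer passed (adjusted permutation p = 0.0774, 0.12 and 0.12).

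Among the 8 pristane-SNF1 mice of week 12, Mmp12 (r = 0.88), Mmp2 (r = 0.87), Timp2 (r = 0.82) and Adamts1 (r = 0.80) passed the exact permutation test, adjusted over 8 pairs since Mmp7 did not vary, with p of 0.0214, 0.0214, 0.0321 and 0.0321 (unadjusted 0.00273, 0.00536, 0.0121 and 0.0161). Spearman's rho was 0.92, 0.83, 0.69 and 0.69, with adjusted permutation p of 0.0214, 0.0667, 0.139 and 0.139 and unadjusted p of 0.00268, 0.0167, 0.0694 and 0.0694. Timp3 had r = -0.66 and did not pass (adjusted permutation p = 0.12). Without the 2 mice farthest from the median of Timp1, r over 6 mice was 0.73, 0.75, 0.78 and 0.48 and none passed (adjusted permutation p = 0.246, 0.246, 0.246 and 0.554). After quantile normalization Timp2 did not pass at week 12 (r = 0.65, adjusted permutation p = 0.0977). Mmp9, with r = 0.74 and an adjusted permutation p of 0.153 as deposited, passed after median centring (r = 0.82, 0.0171) and after quantile normalization (r = 0.84, 0.0167). The share of all genes that would pass at week 12 was not counted either.

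**Figure D4:**
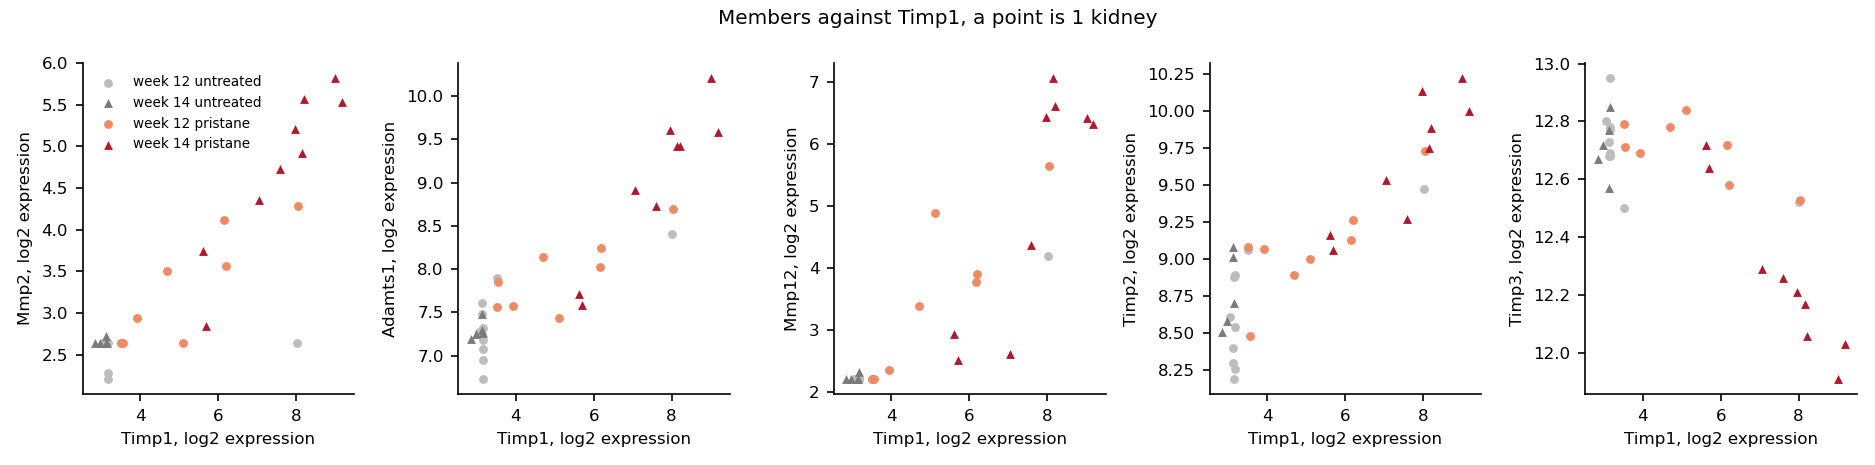
Log2 expression of Mmp2, Adamts1, Mmp12, Timp2 and Timp3 (vertical axes) against that of Timp1 (horizontal axes), with 1 point for each kidney of weeks 12 and 14. Among the pristane-SNF1 mice of week 14, Mmp2 was higher (r = 0.94) and Timp3 lower (r = -0.98) where Timp1 was higher. The share of all genes correlated as strongly with Timp1 was not counted. The grey point at a Timp1 of 8.02 is untreated mouse 10 of week 12.

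Over the means of the 11 groups, the genes most like Timp1 among 12093 genes above the 40th percentile of mean expression were Lsp1, Tlr7, Hpgds, Tnfsf13b and Stat3, each with r = 0.99. Lsp1 is an actin-binding protein of leukocytes, Tlr7 a receptor for single-stranded RNA, Hpgds a prostaglandin D synthase, Tnfsf13b the B cell survival factor BAFF and Stat3 a transcription factor of cytokine signalling. Of the members, Mmp12 (r = 0.99), Mmp2 (0.97) and Adamts1 (0.96) came closest, followed by Mmp7 (0.87), Timp2 (0.81), Mmp3 (0.80) and Mmp14 (0.72), while Mmp9 had 0.16 and Timp3 -0.79. Mmp12, Mmp2, Mmp3 and Mmp9 lay below that percentile and so were not among the genes ranked. All genes were measured on the same arrays, and week 14 of the treated mice has the highest of the 11 means for Timp1, so these values are a description.

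Mmp12, Mmp3 and Mmp7 lie in a cluster of metalloproteinase genes on chromosome 9, in which the annotation places Mmp13, Mmp12, Mmp1b, Mmp3, Mmp1a, Mmp10, Mmp8, Mmp27, Mmp20 and Mmp7 in this order. Promoter sequences from RefSeq (GRCm38.p6, 250 bases before to 50 after a start) were matched for 8 of the 10 genes and not for Mmp2 and Mmp9. The AP-1 site TGACTCA, a sequence bound by Fos and Jun factors, was searched on both strands and was found in 3 of the 8, which are these 3 neighbours. Counted by promoter entry, it occurred in 3 of the 10 entries of the 8 genes and in 5.2% of the 32851 promoters of the table. The windows below show the site in capitals, read as TGAGTCA on the strand of the gene, with 25 bases on each side. It began 44 bases before an annotated start of Mmp12, and 46 and 63 bases before those of Mmp3 and Mmp7. Mmp12 has a pair of entries, and the other one did not hold the site.
Mmp12, chr9:7347305-7347361, + strand: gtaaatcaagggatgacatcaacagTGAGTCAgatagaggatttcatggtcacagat
Mmp3, chr9:7445751-7445807, + strand: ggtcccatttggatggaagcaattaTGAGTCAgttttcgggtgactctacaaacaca
Mmp7, chr9:7692002-7692058, + strand: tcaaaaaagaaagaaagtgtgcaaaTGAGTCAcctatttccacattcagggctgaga

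These 3 genes did not pass the test at week 14, and a match of letters is a description of the sequence. A motif of NF-kB, searched on both strands, was in 1.63% of all promoters and in 0 of the 10 entries of the 8 genes. Timp1, the member with the largest change, held neither sequence as searched in its window, and variants of them were not searched. The window does hold TGAGTAA, which differs from TGAGTCA by a single base. Its last 170 bases, which run from 120 bases before the start, are shown for comparison with the 3 protease promoters.
Timp1, chrX:20870046-20870215, + strand: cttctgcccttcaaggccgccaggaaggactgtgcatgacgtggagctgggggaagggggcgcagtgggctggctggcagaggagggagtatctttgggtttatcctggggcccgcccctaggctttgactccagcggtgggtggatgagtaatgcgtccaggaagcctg

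Other genes of matrix turnover were counted in 3 lists. Of the other metalloproteinases and Timp4, 10 of 16 were represented, and at week 14 Mmp10 and Mmp23 were higher, Mmp24 was lower and 7 did not pass. Mmp10, the stromelysin 2 gene of the cluster on chromosome 9, lay at the floor in all 5 untreated mice and ranged from 2.21 to 6.71 in pristane-SNF1 mice (4.34-fold, limma adjusted p = 0.0469). Of the other Adamts proteases 13 of 18 were represented, of which Adamts4, an aggrecanase like Adamts1, was higher (4.54-fold, adjusted p = 0.0129) and 12 did not pass. Of the plasminogen system and other regulators, 21 of 26 were represented, 8 were higher and 0 lower. The plasminogen activator genes Plat and Plau were not among the 8 (log2 fold change 0.12 and -0.45, limma adjusted p = 0.653 and 0.213). At an unadjusted p under 0.05, 9 of the 21 were higher and 4 lower, against 2414 and 2828 of all 17097 genes. The 8 called included Ctss (8.43-fold, adjusted p = 0.000901), Ctsk (2.81-fold, 0.0165) and Ctsl (2.09-fold, 0.0141). These are lysosomal cysteine proteases that can degrade elastin and collagen. Lox, which crosslinks collagen, was 7.46-fold higher (adjusted p = 0.0157), the matricellular protein gene Thbs2 3.02-fold (0.00966) and Serping1, the C1 inhibitor, 2.61-fold (0.0115). Mmp23 (1.54-fold), Mmp24 (log2 fold change -0.24), Sparc and Loxl1 completed the counts and were named after their values were seen. Called higher at week 14 were 20%, 7.69% and 38.1% of the genes of the 3 lists, against 6.97% of all genes. Called lower were 10%, 0% and 0%, against 4.8% of all genes. The share of the Adamts list called higher was thus close to that of all genes. The median log2 fold changes of the 3 lists were 0.11, 0.28 and 0.22, against 0.00 for all genes.

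Markers of several cell types also differed between the groups at week 14. In that comparison 6.97% of all genes were called higher and 4.8% lower. Of the macrophage markers 6 of the 9 represented were higher, and their mean ranged from 5.10 to 5.56 in untreated and from 6.15 to 7.63 in pristane-SNF1 mice. Fibroblast and myofibroblast markers were higher in 5 of 10 (mean 5.10 to 5.45 against 5.74 to 7.04), injured tubule markers in 6 of 9 (5.98 to 6.45 against 6.27 to 9.52), T and B cell markers in 3 of 8 (4.10 to 4.31 against 4.32 to 6.07) and neutrophil markers in 2 of 9 (2.63 to 2.91 against 2.96 to 4.47). The neutrophil markers called, S100a8 and S100a9, were higher before week 14 too. S100a9 was called at every week and S100a8 at weeks 4 and 8, and at week 4 they were 12.9-fold and 14.8-fold higher (limma adjusted p = 0.00548 and 0.00445). The median of the neutrophil mean in pristane-SNF1 mice was 3.62 at week 4 and 3.34 at week 14. No macrophage marker was called at weeks 2, 4, 8 and 12. At an unadjusted p under 0.05, 1, 6, 0 and 5 of the 9 were higher at these weeks. Of all 17097 genes, 800, 641, 533 and 1104 were. Proximal tubule markers were lower in 2 of 8 (11.42 to 11.61 against 9.61 to 11.54) and endothelial markers in 2 of 8 (7.57 to 7.95 against 7.27 to 8.05). None of the 6 podocyte, 12 adrenal and 5 perirenal fat markers passed. The part of these cell types in the changes of the 10 genes was not tested. The adrenal mean was between 3.35 and 3.63 in untreated and between 3.35 and 6.34 in pristane-SNF1 mice of week 14, and with it as a covariate 2 member probe sets were called, both higher, against 1.4% of all probe sets higher and 0.22% lower. The log2 fold change of Timp1 was then 4.27 (limma adjusted p = 0.0102). Those of Mmp2, Adamts1, Timp2 and Timp3 were 1.85, 1.49, 0.80 and -0.40, with adjusted p of 0.0618, 0.0824, 0.0884 and 0.13.

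The calls at week 14 changed with the mice left out. In place of the 7 member probe sets called, 4 were called without untreated mouse 1, 2 without mouse 2, 3 or 4, and 3 without mouse 5. Among the pristane-SNF1 mice, 3 and 4 were called without mice 3 and 9. Without pristane mouse 4, 5, 6 or 7 there were 5, and without pristane mouse 8 there were 6. Without pristane mouse 1 or 2, 9 were called, 6 higher and 3 lower. Of all probe sets, 6.27% and 6.83% were then called higher and 7.98% and 9.35% lower. Member calls in the other fits were all higher. Without untreated mouse 2, 3 or 4, 1.82%, 1.57% and 1.77% of all were called higher and 0.389%, 0.298% and 0.295% lower. Over the 14 fits the share of all probe sets called ranged from 1.57% to 6.83% higher and from 0.295% to 9.35% lower. Over the 14 mice left out in turn, Mmp2 passed in 11 (highest adjusted p 0.0538), Adamts1 in 8 (0.0696), Timp2 in 8 (0.0785) and Timp3 in 2 (0.102), all with the direction of change kept.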

How the data were processed

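Total RNA of snap-frozen kidneys was labelled and hybridized to Affymetrix HT MG-430 PM arrays. Per the labels and methods, the authors normalized the probe intensities by RMA (the labels also name Partek), and the deposited values are log2 expression per probe set. The table held 45141 probe sets, of which 104 control probe sets were left out. No array was identical to another. Of the probe sets tested, 29449 were annotated, 28898 of them with 1 gene symbol and 551 with several, which named no gene. Columns of the authors' own comparisons were not used.

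Groups were taken from the sample titles, which name the kidneys NORMAL or DISEASED. With the study's methods, NORMAL was read as untreated and DISEASED as pristane-treated. Members, gene lists and named genes were chosen with earlier results of these data known. All 10 members are described. From the other lists, up to 10 called genes with a fold change over 2 were named, and the 5 genes most like Timp1 over the group means. Within each week pristane and untreated mice were fitted with limma 3.58.1 in R 4.3.3, with empirical Bayes moderation and Benjamini-Hochberg adjustment over 45037 probe sets. Correlations were tested by exact permutation of pairings. The script was tested on simulated data. The alternatives were median centring, quantile normalization, a filter at the 40th percentile, all groups in a single fit, a trended and robust fit, a fit with the replicate number as a block, group weights, an adjusted p of 0.01, a fold change over 2, the adrenal mean as covariate, averaging the probe sets of each gene, and omission of each mouse in turn. Protein sequences were not used here.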

Additional observations from a re-analysis of the deposited data

Results flagged for a closer look

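A kidney was listed where its gap to the nearest other kidney of its group, as a share of the range of the group, exceeded the 95% critical value of Dixon's test. This was met in 41 of 110 sets of 1 gene in 1 group. Chance gives about 1 in 20, but in 33 of the 41 most kidneys shared a single low value, so that any other value stood out. No explanation was tested.

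Timp1 stood apart at the high end with 8.02 in mouse 10 of the week 12 untreated group. Timp3 stood apart at the low end with 12.36 in mouse 2 of the week 2 untreated group, 12.41 in mouse 2 of the week 4 untreated group and 12.24 in mouse 10 of the week 8 untreated group. Adamts1 stood apart at the high end with 8.25 in mouse 4 of the week 4 pristane group. Adamts1 stood apart at the low end with 6.45 in mouse 7 of the week 4 untreated group. Mmp2 stood apart at the high end with 3.02 in mouse 5 of the week 0 untreated group, 2.84 in mouse 7 of the week 2 untreated group, 3.59 in mouse 1 of the week 2 pristane group, 2.96 in mouse 5 of the week 4 untreated group and 2.73 in mouse 1 of the week 14 untreated group. Mmp12 stood apart at the high end with 2.46 in mouse 4 of the week 0 untreated group, 2.31 in mouse 4 of the week 4 untreated group, 2.24 in mouse 9 of the week 4 pristane group, 2.76 in mouse 3 of the week 8 untreated group, 4.47 in mouse 4 of the week 8 pristane group, 4.19 in mouse 10 of the week 12 untreated group and 2.33 in mouse 5 of the week 14 untreated group. Mmp3 stood apart at the high end with 2.70 in mouse 8 of the week 2 untreated group, 3.01 in mouse 8 of the week 2 pristane group, 2.83 in mouse 5 of the week 4 pristane group, 3.26 in mouse 2 of the week 8 untreated group and 3.01 in mouse 3 of the week 8 pristane group. Mmp3 stood apart at the low end with 2.41 in mouse 9 of the week 4 untreated group and 2.31 in mouse 4 of the week 14 untreated group. Mmp7 stood apart at the high end with 3.74 in mouse 3 of the week 0 untreated group, 3.60 in mouse 2 of the week 8 untreated group and 3.70 in mouse 10 of the week 12 untreated group. Mmp7 stood apart at the low end with 3.37 in mouse 9 of the week 2 pristane group and 3.39 in mouse 1 of the week 14 untreated group. Mmp9 stood apart at the high end with 3.25 in mouse 10 of the week 12 untreated group, 3.31 in mouse 4 of the week 12 pristane group and 3.29 in mouse 8 of the week 14 pristane group. Mmp9 stood apart at the low end with 2.83 in mouse 6 of the week 2 pristane group and 2.95 in mouse 8 of the week 4 untreated group. Mmp14 stood apart at the high end with 5.47 in mouse 5 of the week 4 pristane group, 5.42 in mouse 4 of the week 8 untreated group, 5.67 in mouse 10 of the week 12 untreated group and 5.39 in mouse 1 of the week 12 pristane group. Mmp14 stood apart at the low end with 4.94 in mouse 2 of the week 2 untreated group and 5.03 in mouse 6 of the week 4 untreated group. Untreated mouse 10 of week 12 was listed for Timp1, Mmp7, Mmp9, Mmp12 and Mmp14.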

How the results depend on the processing

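At weeks 2, 4 and 8, 0 member probe sets were called under every alternative. At week 14 the 7 calls became 13 with all groups in a single fit, 1 at an adjusted p of 0.01, 4 with a fold change over 2 and 2 with the adrenal covariate, and 2 to 9 when a mouse was left out. The shares of all probe sets called higher and lower were 8.96% and 11.8% in the single fit, 0.724% and 0.0755% at 0.01, and 1.89% and 0.744% with a fold change over 2. With the replicate number as a block 0 were called, as of all probe sets, and Timp1 had a log2 fold change of 4.17 (adjusted p = 0.304). Only mice with a number in both groups inform that fit, 5 pairs at week 14. Whether the numbers pair the mice could not be told. The correlation of same-numbered mice exceeded 0.1 in 5 of 9, 3 of 9, 3 of 8, 1 of 8 and 2 of 5 pairs at weeks 2, 4, 8, 12 and 14. At these weeks 0, 1, 0, 0 and 2 pristane-SNF1 mice correlated best with the untreated mouse of their own number. At week 12 the 0 calls became 3 in the single fit (1.69% and 0.409% of all probe sets) and 0 to 1 without a mouse. For the difference between weeks 14 and 12 the 0 calls became 2 with the filter (0.444% and 4.11% of those tested), 10 in the single fit (3.28% and 7.73%), 6 with weights per group (0.822% and 3.81%) and 0 to 8 without a mouse. For untreated week 14 against week 0 they became 3 with median centring, 1 with quantile normalization (10.7% and 7.46% of all), 1 with the filter (19.2% and 9.81%), 2 in the single fit (12.9% and 15.6%), 1 with weights and 0 to 1 without a mouse. Why they moved was not tested; the cause was not tested for the correlations either, of which 9 passed and 2 did without the 2 mice farthest in Timp1. Of the 50 values of the 17 correlations under alternatives, 10 changed side of the threshold. None of the 17 member results called under some setting changed direction. Of the 53 never called, 27 changed sign under at least 1 setting.

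Precision is limited by the number of mice, 5 in the smallest group, and by the repeated low values of the metalloproteinases, near background.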
